A study of Mus musculus with 6 samples.

Results

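The genes described here are 9 genes of polyamine synthesis and catabolism in NIH3T3 cells, a mouse embryonic fibroblast line, among the 20475 genes of the deposited RNA-seq table. They were chosen by symbol as Odc1, Amd1, Srm and Sms of synthesis, Oaz1, Oaz2 and Azin1 of its control, and Sat1 and Smox of catabolism. All 9 were found and all 9 passed the filter on low values. The 6 libraries fell into 3 groups of 2. The first group received phosphate-buffered saline (PBS), the second extracellular vesicles (EVs, membrane-bound particles that cells release) collected from MCF10A, a line of human mammary epithelium that forms no tumours, and the third those of MDA-MB-231, a line from a triple-negative breast carcinoma. All cells were at passage 5 in medium with fetal bovine serum, the EVs were suspended in PBS, and RNA was taken 48 h after treatment. The cells are a single established line and stand for no tissue fibroblast in particular, and the labels do not say whether replicates were separate cultures, so p-values measure only the spread between these libraries.

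Polyamines (putrescine, spermidine and spermine) are small positively charged molecules that bind nucleic acids and are needed for translation and growth. Ornithine decarboxylase (Odc1) makes putrescine, S-adenosylmethionine decarboxylase (Amd1) supplies the aminopropyl donor, and spermidine synthase (Srm) and spermine synthase (Sms) add aminopropyl groups. Antizymes (Oaz1, Oaz2) bind ornithine decarboxylase and send it to the proteasome, and the antizyme inhibitor (Azin1), a relative of the enzyme, binds antizyme in its place. Spermidine/spermine acetyltransferase (Sat1) marks polyamines for export or oxidation, and spermine oxidase (Smox) turns spermine back to spermidine. Much of this control acts on translation and protein stability, so transcript levels are only part of it.

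With MCF10A EVs, transcripts of the synthesis genes Srm, Amd1, Odc1 and Sms rose, Srm 1.43-fold, Amd1 1.34-fold, Odc1 1.16-fold and Sms 1.09-fold, and the acetyltransferase transcript Sat1 fell 1.19-fold. With MDA-MB-231 EVs, Amd1, Srm and Sms rose as well, 1.23-fold, 1.15-fold and 1.10-fold, but Odc1 fell 1.17-fold, and the catabolic transcripts Sat1 and Smox fell 1.54-fold and 1.48-fold. Set against MCF10A EVs directly, MDA-MB-231 EVs gave lower Odc1, Srm, Amd1, Sat1 and Smox. The antizyme transcript Oaz1 was not called in any comparison, whereas Oaz2 was called lower and Azin1 higher with either EV against PBS. Folds are on the log2(value + 1) scale, and rose and fell refer to calls by limma, a linear model fitted across all tested genes, at a Benjamini-Hochberg adjusted p under 0.05. Of 20 called changes of the members, 8 held under all 18 alternative settings, and none of those of Odc1, Sms, Oaz2 and Azin1 did. The Amd1 value is joint with that of Amd2. In bulk RNA, fewer cells of a type and less RNA per cell cannot be told apart.

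The libraries held 22451173 to 29315530 gene reads, and the 9 members took 0.129% to 0.147% of a library. A member had between 584 and 10834 reads in a library, which is a counting error of 4.14% to 0.961%. The 10 fibroblast markers summed to 426109 to 426208 normalised reads with PBS, 371527 to 381130 after MCF10A EVs and 363190 to 372170 after MDA-MB-231 EVs. Vim, Col1a2, Fn1 and Col1a1 made up most of that sum. With either EV 6 of the markers were called lower and 1 higher. The higher one was Col3a1, 1.74-fold with MCF10A EVs and 1.37-fold with MDA-MB-231 EVs. Against MCF10A EVs, MDA-MB-231 EVs gave 3 called higher, Col1a2, Pdgfra and Pdgfrb, and 4 lower. The 7 epithelial markers summed to 43.5 to 48.7 with PBS, 35.4 to 40.7 with MCF10A EVs and 28.5 to 37.2 with MDA-MB-231 EVs. Epcam, Krt5 and Krt18 were at 0 reads, and most of the sum was Krt8, at means of 46.1, 35.3 and 28.7. Cdh1, under 20 reads everywhere, averaged 0, 2.35 and 3.11 and was called higher with either EV (limma, adjusted p = 0.0397 and 0.0177). Postn, among the fibroblast markers, had under 20 reads in every library. Markers of macrophages and leukocytes, 6 in the table, summed to 3036 to 3142 with PBS, 1779 to 1832 with MCF10A EVs and 993 to 1059 with MDA-MB-231 EVs, with Adgre1 at 0 and Ptprc and Itgam under 20 reads everywhere. The 5 endothelial markers summed to 350.2 to 358, 289 to 339 and 155 to 189.8 in the same order, with Pecam1, Kdr, Tek and Esam under 20 reads everywhere. The macrophage and leukocyte sum is nearly all Cd14, at means of 2992, 1711 and 977. The endothelial sum is nearly all Cdh5, at 347, 304 and 160.0. Lyz2, Csf1r and Esam did not share that order: Lyz2 stood at 17.2, 12.3 and 17.7, Csf1r at 78.5, 80.8 and 27.6, and Esam at 1.49, 5.72 and 7.30. Csf1r was still called lower with MDA-MB-231 EVs against PBS and against MCF10A EVs (limma, adjusted p = 2.47e-05 and 7.01e-05). The fibroblast sum, Krt8, Cd14, Csf1r and Cdh5 were lowest with MDA-MB-231 EVs, as were Odc1, Sat1 and Smox. Other markers were highest there, among them Cdh1, Esam and the fibroblast marker Pdgfrb, at means of 8825, 8208 and 9278. So were Postn, at 6.04, 5.16 and 11.4, and Itgam, at 1.01, 1.91 and 3.11. The part of the markers in the results of the members was not tested. Of all called genes, 51.4% were higher with MDA-MB-231 EVs than with PBS, and 67.8% were when reads were scaled by library totals. Between the EVs, 40.4% of called genes were higher with MDA-MB-231 EVs, 61.7% with library totals and 50.7% with quantile scaling.

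Of the 9 members, 7 were called between MCF10A EVs and PBS, 5 higher and 2 lower, where 31.7% of 15025 tested genes were called, 17.1% higher and 14.6% lower. Between MDA-MB-231 EVs and PBS 8 were called, 4 higher and 4 lower, beside 34.8% of tested genes, 17.9% higher and 16.9% lower. Between the EVs 5 were called, all of them lower with MDA-MB-231 EVs, beside 16.9% of tested genes, 6.84% higher and 10.1% lower. The members are well expressed, so the 10104 genes that average 5 CPM or more (reads scaled to the library total) give a closer background. Of these, 43.7% were called with MCF10A EVs (24.6% higher, 19.2% lower), 47.8% with MDA-MB-231 EVs (25.0% higher, 22.7% lower) and 23.3% between the EVs (9.21% higher, 14.1% lower). The libraries of the groups did not overlap for 9, 9 and 6 of the 9 members, where 64.2%, 65.9% and 56.0% of tested genes did not overlap. The median log2 change of the members was 0.12 with MCF10A EVs against PBS, -0.042 with MDA-MB-231 EVs against PBS and -0.13 between the EVs, where the medians of all tested genes were 8.14e-05, 0.010 and -0.00063. Changes of this size were common in the table. At least as large a change was seen in 12.9% of tested genes for Sat1 with MDA-MB-231 EVs, in 15.3% for Srm with MCF10A EVs and in 14.9% for Smox between the EVs. These shares cover all 15025 tested genes, weakly expressed ones included, and were not taken over the 10104 genes alone. The comparisons with PBS share the PBS libraries, so the changes in them are not independent.

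**Figure D1:**
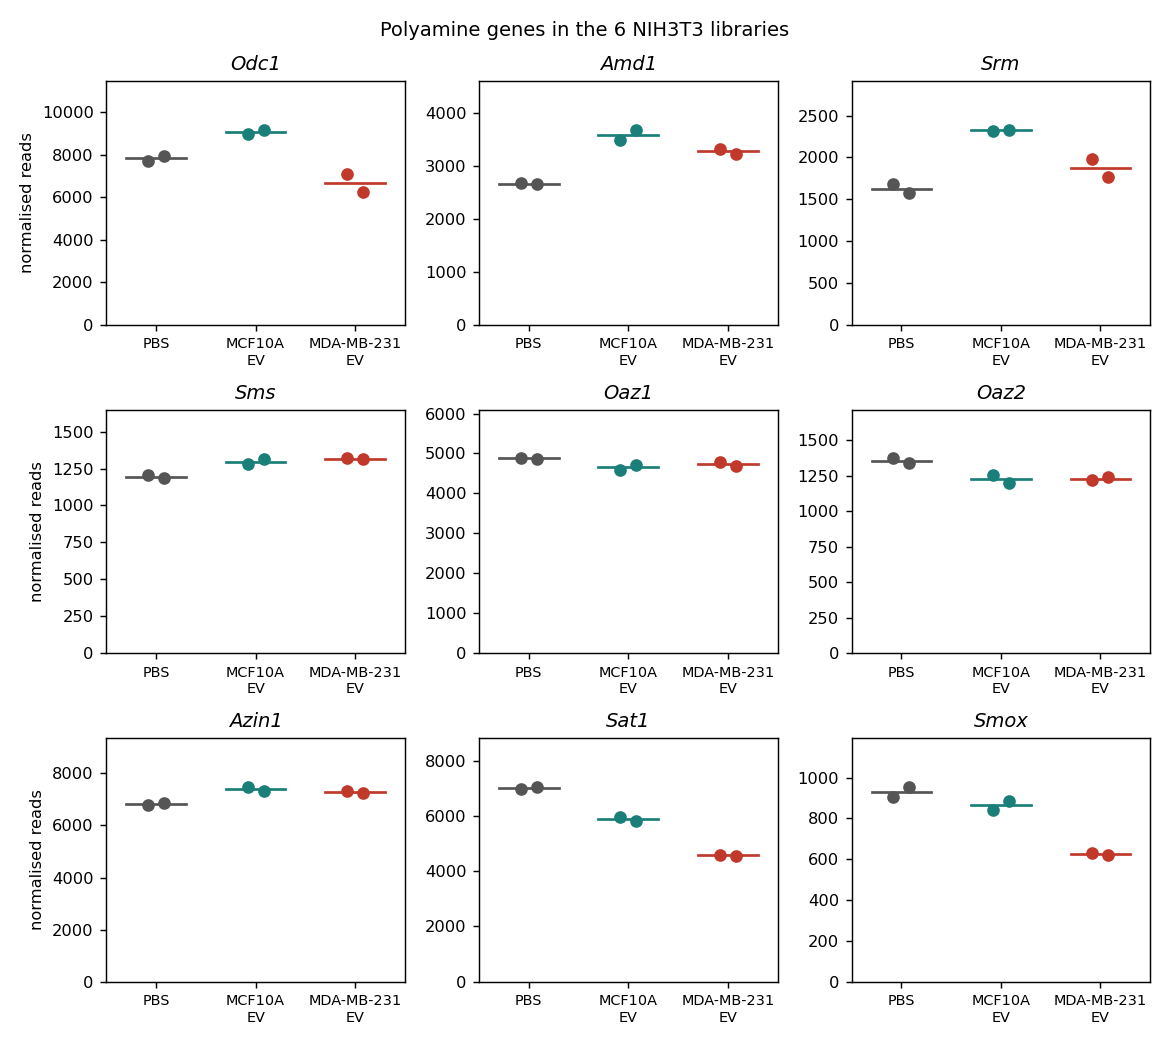
Normalised reads (vertical axis, from 0) of the 9 genes in each of the 6 libraries; points are libraries and lines group means, with the groups on the horizontal axis. Odc1 is highest with MCF10A EVs and lowest with MDA-MB-231 EVs, whereas Sat1 is at 6988 and 7054 with PBS and at 4598 and 4546 with MDA-MB-231 EVs.

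Promoter windows are shown for 4 of the 5 members that differed between the EVs, all of them lower with MDA-MB-231 EVs. Their directions against PBS were not all alike, and the windows set the sequence around their start sites side by side. Each runs 5′ to 3′ on the gene's strand, from RefSeq's table for GRCm38.p6. Capitals mark the GC box GGGCGG on either strand, the element bound by SP family factors. The table had windows for 7 of the 9 members, 8 windows in all, and Srm and Azin1 were not matched.
Odc1 (chr12:17544623-17544922, plus strand): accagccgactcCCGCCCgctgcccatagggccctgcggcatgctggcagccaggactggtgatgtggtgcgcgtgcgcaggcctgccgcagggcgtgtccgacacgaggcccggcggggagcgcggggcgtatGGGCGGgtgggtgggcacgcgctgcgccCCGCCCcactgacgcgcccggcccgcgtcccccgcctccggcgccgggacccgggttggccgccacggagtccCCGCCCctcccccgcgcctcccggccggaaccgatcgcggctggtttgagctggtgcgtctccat
Amd1 (chr10:40302139-40302438, minus strand): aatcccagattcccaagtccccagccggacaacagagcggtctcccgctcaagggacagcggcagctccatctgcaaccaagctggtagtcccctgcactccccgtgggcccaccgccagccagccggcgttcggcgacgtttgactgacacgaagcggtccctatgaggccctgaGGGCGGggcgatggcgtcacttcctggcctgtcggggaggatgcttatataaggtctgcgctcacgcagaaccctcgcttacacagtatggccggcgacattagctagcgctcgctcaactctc
Sat1 (chrX:155216400-155216699, minus strand): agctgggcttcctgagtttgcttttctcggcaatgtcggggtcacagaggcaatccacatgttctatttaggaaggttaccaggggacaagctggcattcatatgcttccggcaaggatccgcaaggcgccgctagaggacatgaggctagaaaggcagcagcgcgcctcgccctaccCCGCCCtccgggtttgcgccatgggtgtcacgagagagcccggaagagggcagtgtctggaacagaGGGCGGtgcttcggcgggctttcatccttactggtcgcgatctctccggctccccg
Smox (chr2:131491612-131491911, plus strand): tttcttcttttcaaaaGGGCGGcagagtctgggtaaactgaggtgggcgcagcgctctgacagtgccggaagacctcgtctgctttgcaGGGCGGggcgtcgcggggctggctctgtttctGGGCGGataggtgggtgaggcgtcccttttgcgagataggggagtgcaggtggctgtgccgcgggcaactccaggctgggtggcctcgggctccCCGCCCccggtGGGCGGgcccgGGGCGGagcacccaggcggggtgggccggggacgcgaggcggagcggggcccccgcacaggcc
The windows of Odc1, Amd1, Sat1 and Smox held 4, 1, 2 and 6 GC boxes, and their GC content was 78%, 63%, 60.3% and 71%. At least 1 GC box was found in 35.7% of all 32851 windows of 300 bases in the table. The E-box CACGTG, a palindrome bound by MYC and MAX, was in none of these 4 windows and in 1 of the 2 windows of Sms, and it was in 7.15% of all windows. The TATA element TATAAA, searched on both strands, was in the window of Oaz1 alone among the members, and in 13.6% of all windows. The 3 motifs were counted separately, and a match describes the letters of a window only. Sequence outside the windows was not searched, so a motif missing from a window can still lie elsewhere in the gene.

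Odc1, on chromosome 12, encodes the enzyme that opens the pathway. Its transcript stood at 7726 and 7937 normalised reads in the PBS libraries, at 8983 and 9183 after MCF10A EVs, and at 7109 and 6248 after MDA-MB-231 EVs. Every MCF10A EV library was above and every MDA-MB-231 EV library below both PBS libraries, and the spread was widest with MDA-MB-231 EVs, at 6678 ± 609 (SD, n = 2). Odc1 rose with MCF10A EVs by a log2 change of 0.21 ± 0.045 (SE; limma, adjusted p = 0.00185). The call did not survive the loss of PBS replicate 1 (0.19), of PBS replicate 2 (0.23) or of MCF10A EV replicate 2 (0.20). With MDA-MB-231 EVs it fell, at -0.23 ± 0.045 (SE; limma, adjusted p = 7.49e-04). Without MDA-MB-231 EV replicate 2 the change was -0.14 and still called, and without PBS replicate 2 it was -0.21 and not called (limma, adjusted p = 0.0662). The difference between the EVs was larger, -0.45 (95% interval -0.54 to -0.35; limma, adjusted p = 6.18e-06), and was called with any 1 of the 6 libraries left out. All 3 calls of Odc1 were lost by limma without trend, with adjusted p of 0.138, 0.105 and 0.0760 in the order given. Of the words of 50 bases in its longest coding transcript, 42.2% also occur in transcripts of other genes, 16 genes in all, of which the processed pseudogene Gm7993 holds the most, 20.3% of the words. How reads that fit several genes were counted is not given in the sources used here, so the level of Odc1 is uncertain.

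Myc, whose product is known to activate Odc1, stood at 1556 and 1575 normalised reads in the PBS libraries, at 1589.8 and 1658 after MCF10A EVs, and at 1444 and 1396 after MDA-MB-231 EVs. Its change with MCF10A EVs was 0.052 and was not called (limma, adjusted p = 0.392), and with MDA-MB-231 EVs it fell by 0.14 on the log2 scale (limma, adjusted p = 0.0168). At least as large a change as this fall was seen in 60.1% of tested genes. Between the EVs the change of Myc was -0.19, lower with MDA-MB-231 EVs (limma, adjusted p = 0.00515). Its calls under other settings are not given here.

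Amd1, on chromosome 10, encodes the decarboxylase of S-adenosylmethionine. It stood at 2665 and 2654 normalised reads in the PBS libraries, at 3479 and 3676 after MCF10A EVs, and at 3322 and 3215 after MDA-MB-231 EVs. The PBS libraries were the lowest and the MCF10A EV libraries the highest, with no overlap. Amd1 rose by 0.43 ± 0.036 (SE; limma, adjusted p = 6.24e-07) with MCF10A EVs and by 0.30 ± 0.036 (SE; limma, adjusted p = 1.09e-05) with MDA-MB-231 EVs, and both calls held under all 18 alternatives. Between the EVs the change was -0.13 (95% interval -0.21 to -0.053; limma, adjusted p = 0.0225). It was not called with any 1 library left out except MCF10A EV replicate 1, nor in 4 further settings; the change was -0.090 without MCF10A EV replicate 2 and -0.087 with library totals. The value belongs to Amd1 and Amd2 together. Amd2, also on chromosome 10, had the same number of reads as Amd1 in 5 of 6 libraries and 1 read fewer in the other, and 86.0% of the words of 50 bases of Amd1 occur in Amd2.

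Srm, on chromosome 4, encodes spermidine synthase. It stood at 1682 and 1571 normalised reads in the PBS libraries, at 2321 and 2331 after MCF10A EVs, and at 1981 and 1764 after MDA-MB-231 EVs. The MCF10A EV libraries lay far above the others, and those with MDA-MB-231 EVs lay between. Srm had the largest change among the members with MCF10A EVs, 0.52 ± 0.051 (SE; limma, adjusted p = 2.83e-06), which held under all 18 alternatives. With MDA-MB-231 EVs it rose by 0.20 ± 0.051 (SE; limma, adjusted p = 0.00611), which did not pass when PBS replicate 2 was left out (0.15), when MDA-MB-231 EV replicate 1 was left out (0.12) and by limma without trend (adjusted p = 0.140). Between the EVs it was lower by -0.31 with MDA-MB-231 EVs (95% interval -0.42 to -0.20; limma, adjusted p = 5.53e-04), and the call was lost without MDA-MB-231 EV replicate 2, at -0.23, and by limma without trend (adjusted p = 0.126). Only 2.40% of its words of 50 bases occur in another gene.

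Sms, on chromosome X, encodes spermine synthase. It stood at 1204 and 1184 normalised reads in the PBS libraries, at 1281 and 1313 after MCF10A EVs, and at 1319 and 1314 after MDA-MB-231 EVs. The EV libraries were all above the PBS libraries, by about as much with either EV. The change was 0.12 ± 0.043 (SE; limma, adjusted p = 0.0482) with MCF10A EVs and 0.14 ± 0.043 (SE; limma, adjusted p = 0.0190) with MDA-MB-231 EVs. The call with MCF10A EVs was lost with any 1 of the 6 libraries left out and in 7 further settings, and that with MDA-MB-231 EVs with any 1 PBS or MDA-MB-231 EV library left out, by DESeq2 and by limma without trend. Between the EVs the change was 0.022 (95% interval -0.070 to 0.11) and was not called. Of its words of 50 bases, 28.7% occur in other genes, led by the pseudogene Sms-ps, so its level is uncertain like that of Odc1.

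**Figure D2:**
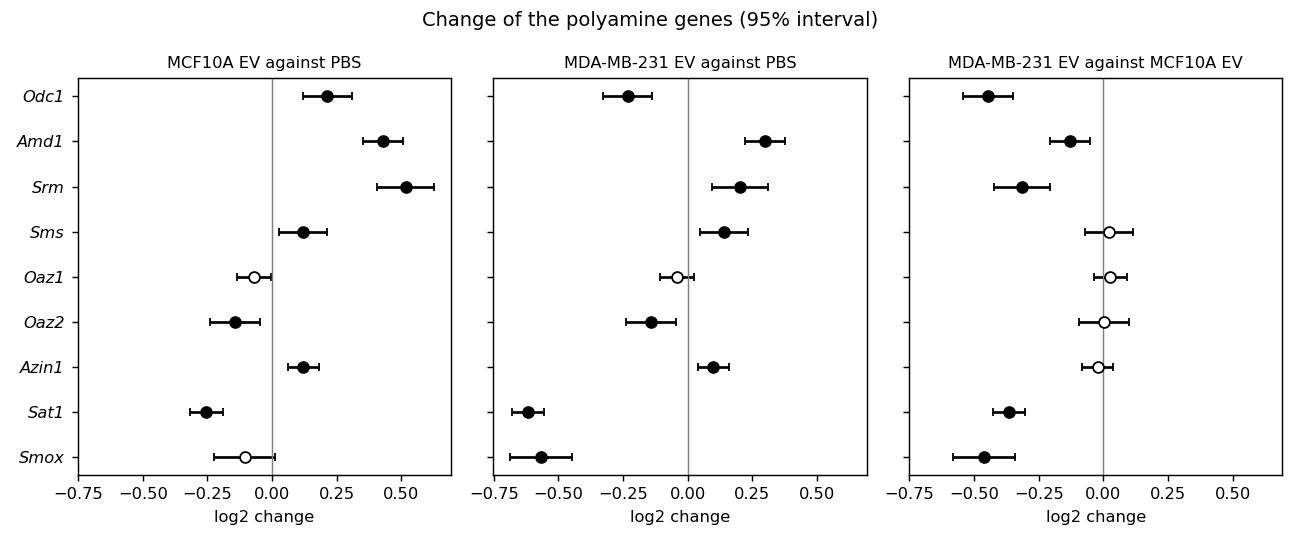
The log2 change of each gene (horizontal axis) in the 3 comparisons, with its 95% interval from limma; filled points passed an adjusted p under 0.05 and open points did not. Odc1 is at 0.21 with MCF10A EVs and -0.23 with MDA-MB-231 EVs against PBS, and Odc1, Srm, Amd1, Sat1 and Smox are below 0 between the EVs.

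Among the members, Oaz1, Oaz2 and Azin1 moved less than the enzymes' largest changes. Against PBS, Oaz2 and Azin1 moved about as much as the enzyme transcript Sms, at 0.12 and 0.14. Oaz1, on chromosome 10, the more abundant antizyme transcript, stood at 4881 and 4874 normalised reads in the PBS libraries, at 4593 and 4707 after MCF10A EVs, and at 4793 and 4683 after MDA-MB-231 EVs. The EV libraries overlapped each other and lay just under the PBS libraries, at changes of -0.069 (95% interval -0.13 to -0.0039; limma, adjusted p = 0.102) and -0.042 (95% interval -0.11 to 0.023; limma, adjusted p = 0.326). The change with MCF10A EVs was called by edgeR on recovered reads, at -0.076 (adjusted p = 0.0494), and that with MDA-MB-231 EVs turned to 0.024 with library totals and 0.0023 with quantile scaling. Oaz1 shares 52.2% of its words of 50 bases with the pseudogene Oaz1-ps, so its level is uncertain as well. Oaz2, on chromosome 9, stood at 1373 and 1339 normalised reads in the PBS libraries, at 1259 and 1198 after MCF10A EVs, and at 1218 and 1240.3 after MDA-MB-231 EVs, so that all EV libraries were below those with PBS. It fell by 0.14 on the log2 scale with either EV (limma, adjusted p = 0.0245 with MCF10A and 0.0233 with MDA-MB-231 EVs). Each call depended on the libraries kept, being lost with any 1 PBS or MDA-MB-231 EV library left out, and with MCF10A EVs also without MCF10A EV replicate 2. Both were lost too with DESeq2, with library totals and by limma without trend. With library totals the change with MDA-MB-231 EVs was -0.076.

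Azin1, on chromosome 15, encodes the antizyme inhibitor. Its transcript stood at 6775 and 6849.6 normalised reads in the PBS libraries, at 7487.5 and 7327 after MCF10A EVs, and at 7332 and 7255 after MDA-MB-231 EVs. The EV libraries were above those with PBS and overlapped each other. It rose by 0.12 ± 0.028 (SE; limma, adjusted p = 0.00395) with MCF10A EVs and by 0.098 ± 0.028 (SE; limma, adjusted p = 0.0126) with MDA-MB-231 EVs. The first call was lost without PBS replicate 1, the second with any 1 PBS library or MDA-MB-231 EV replicate 1 left out, and both by limma without trend. An antisense transcript, Gm49077, overlaps its exons, and since the strand counted is not given the reads of both cannot be told apart.

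Between the EVs, Azin1, Oaz1 and Oaz2 changed by -0.022, 0.027 and 0.0013, with 95% intervals of -0.082 to 0.038, -0.038 to 0.092 and -0.095 to 0.098, and were not called. The Azin1 value turned to 0.020 with library totals and 0.022 with quantile scaling, and that of Oaz2 turned to -0.034 without MCF10A EV replicate 2 and -0.012 without MDA-MB-231 EV replicate 2.

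Sat1, on chromosome X, encodes the acetyltransferase of polyamine catabolism. It stood at 6988 and 7054 normalised reads in the PBS libraries, at 5967 and 5806 after MCF10A EVs, and at 4598 and 4546 after MDA-MB-231 EVs. The groups formed 3 separate steps with no overlap. Sat1 fell by 0.25 on the log2 scale with MCF10A EVs (SE 0.029; limma, adjusted p = 1.13e-05) and by 0.62 with MDA-MB-231 EVs (SE 0.029; limma, adjusted p = 5.51e-10), the largest change of any member in any comparison. Between the EVs the change was -0.36 (95% interval -0.43 to -0.30; limma, adjusted p = 5.91e-07). Each of these 3 calls held under all 18 alternatives.

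Smox, on chromosome 2, encodes spermine oxidase and had the fewest reads of the 9. It stood at 906 and 955 normalised reads in the PBS libraries, at 842 and 888 after MCF10A EVs, and at 633 and 622 after MDA-MB-231 EVs. The MCF10A EV libraries lay just under the PBS libraries, and the MDA-MB-231 EV libraries lay well apart. With MCF10A EVs the change was -0.11 (95% interval -0.22 to 0.013) and was not called (limma, adjusted p = 0.172). It was -0.068 without PBS replicate 2 or without MCF10A EV replicate 1, and -0.14 without the other library of either group. With MDA-MB-231 EVs Smox fell by 0.57 on the log2 scale against PBS (SE 0.056; limma, adjusted p = 1.15e-06) and by 0.46 against MCF10A EVs (SE 0.056; limma, adjusted p = 3.85e-05). Both calls held under all 18 alternatives. None of its words of 50 bases occur in another gene's transcripts (0%).

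Levels of different genes were compared as normalised reads per kb of the longest coding transcript. With PBS the order was Sat1 at 6042 ± 40.3 (SD, n = 2), Oaz1 at 4554 ± 4.51, Odc1 at 3547 ± 67.8, Azin1 at 1399 ± 10.8, Srm at 1215 ± 58.8, Amd1 at 830.0 ± 2.30, Oaz2 at 736 ± 13.0, Smox at 405 ± 15.1 and Sms at 321 ± 3.71. No neighbours in that order overlapped between libraries. The SDs leave out the doubt from words shared with other genes, 52.2% for Oaz1, 42.2% for Odc1 and 28.7% for Sms. The level of Amd1 is joint with Amd2. With MCF10A EVs Srm, at 1738 ± 5.22, stood above Azin1, at 1521 ± 23.4. With MDA-MB-231 EVs Oaz1, at 4424 ± 72.4, stood above Sat1, at 3935 ± 31.3, and Sms, at 354 ± 1.01, stood above Smox, at 273 ± 3.15. The order of the 3 most abundant depends on the length used, as does that of Srm and Azin1 with MDA-MB-231 EVs. Per kb of all annotated exons, Odc1 was above Oaz1 in every group, at 2300.0 against 1907 with PBS, and led with either EV. By that length Srm was above Azin1 with MDA-MB-231 EVs too, at 1171 against 1166.

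**Figure D3:**
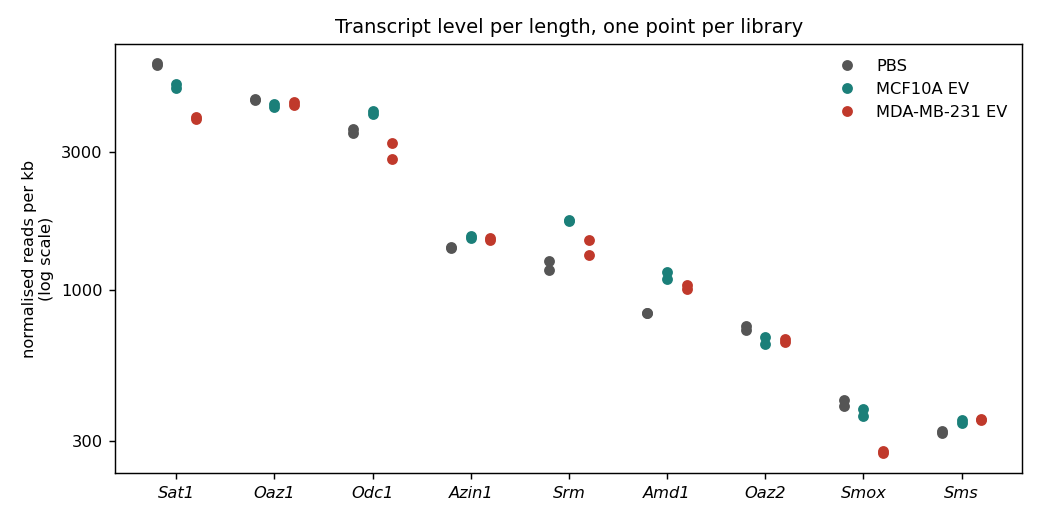
Level of each gene as normalised reads per kb of its longest coding transcript (vertical log axis), with a point for each library coloured by group and genes ordered by their level with PBS. Sat1 leads with PBS at 6042 and is below Oaz1 with MDA-MB-231 EVs, and Smox passes below Sms there.

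Ratios of reads per kb within a library, which a single factor per library cannot move, were taken for 4 pairs. The pairs were chosen with earlier results known, and no test was run on them. Odc1 per Oaz1, the enzyme against its antizyme, was 0.768 and 0.7899 in the PBS libraries, 0.949 and 0.946 after MCF10A EVs, and 0.719 and 0.647 after MDA-MB-231 EVs. The 3 groups did not overlap in it. Sat1 per Srm, the acetyltransferase against a synthase of its substrate, was 4.78 and 5.17 in the PBS libraries, 2.96 and 2.87 after MCF10A EVs, and 2.67 and 2.97 after MDA-MB-231 EVs. Here the EV groups overlapped each other and both lay below PBS. Smox per Sms, which catalyse opposite steps between spermidine and spermine, was 1.22 and 1.304 in the PBS libraries, 1.06 and 1.09 after MCF10A EVs, and 0.775 and 0.766 after MDA-MB-231 EVs. Each group stood apart, lowest with MDA-MB-231 EVs. Odc1 per Azin1, the enzyme against its inactive relative, was 2.52 and 2.56 in the PBS libraries, 2.65 and 2.77 after MCF10A EVs, and 2.14 and 1.8997 after MDA-MB-231 EVs. The order was that of Odc1 itself, with no overlap.

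**Figure D4:**
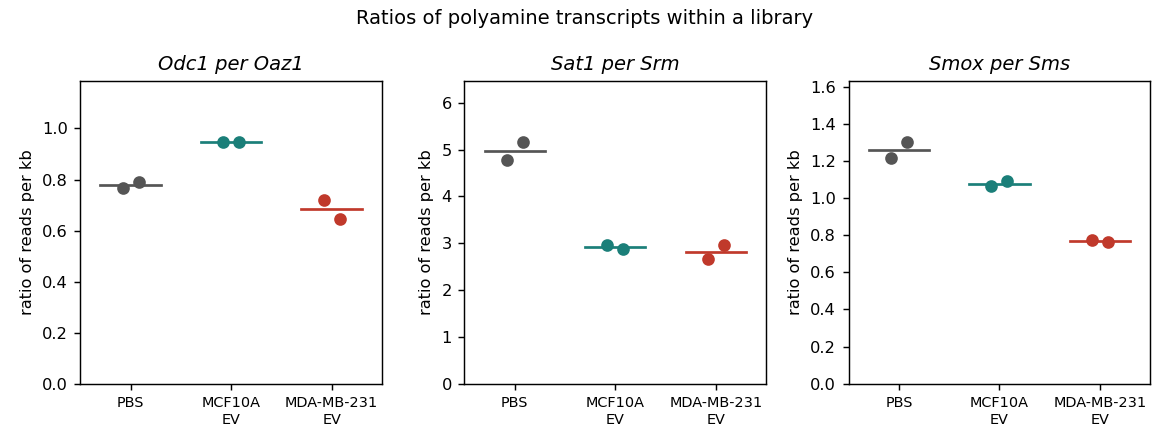
Ratios of reads per kb (vertical axes, from 0) of 3 pairs of polyamine genes within each library, by group; points are libraries and lines group means. Odc1 per Oaz1 is highest with MCF10A EVs, Sat1 per Srm averages 2.91 and 2.82 with the EVs against 4.98 with PBS, and Smox per Sms falls in 3 steps to 0.771.

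Other genes of the pathway came from 4 lists. Of 10 other polyamine enzymes and regulators 8 were tested; with MCF10A EVs 1 was called higher and 2 lower, and with MDA-MB-231 EVs likewise 1 and 2, with medians of -0.064 and -0.071. That is 3 of 8 with either EV, near the 31.7% and 34.8% of all tested genes called. The higher gene was Amd2, which shares its reads with Amd1. Azin2, a second antizyme inhibitor, fell from 192 ± 21.5 (SD, n = 2) normalised reads with PBS to 118 ± 7.23 with MCF10A and 116 ± 15.4 with MDA-MB-231 EVs, by 0.69 and 0.73 on the log2 scale (limma, adjusted p = 0.00187 and 9.99e-04). The first of these calls was lost without PBS replicate 2, at -0.58. Oat, a mitochondrial enzyme that links ornithine and glutamate, fell by 0.10 and 0.16 (limma, adjusted p = 0.0377 and 0.00235), calls lost with library totals, by limma without trend and without PBS replicate 2, and that with MCF10A EVs also without PBS replicate 1, MCF10A EV replicate 1 or MCF10A EV replicate 2, with DESeq2 and with quantile scaling. Satl1 was at 0 reads in every library.

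Of 11 genes of the methionine cycle and of methylthioadenosine salvage, which supply and recover the aminopropyl donor, 6 rose and 2 fell with MCF10A EVs, and 6 rose and 0 fell with MDA-MB-231 EVs, with medians of 0.24 and 0.27. These are 8 and 6 of 11, beside 31.7% and 34.8% of all tested genes called, and 43.7% and 47.8% of those averaging 5 CPM or more. Mat2b and Mtap were the 2 that fell, by 0.16 and 0.086 on the log2 scale. Mat2a rose by 0.10 with MCF10A EVs (limma, adjusted p = 0.0133). With MDA-MB-231 EVs it stood at -0.030 and was not called, and between the EVs it was called lower, at -0.13. Mat2b, Mtap and Mat2a are named after their values were seen. Ahcy, which clears S-adenosylhomocysteine, rose from 3317 ± 30.9 to 3924 ± 65.6 with MCF10A and 4477 ± 35.9 with MDA-MB-231 EVs (SD, n = 2; limma, adjusted p = 3.21e-05 and 5.64e-08). Mtr, methionine synthase, rose 1.20-fold and 1.33-fold. Adi1, of the salvage pathway, rose 1.29-fold and 1.20-fold. Mtrr, which reactivates methionine synthase, rose 1.41-fold with MCF10A EVs and 1.20-fold with MDA-MB-231 EVs, the latter not called by DESeq2, by limma without trend, or with either library of the PBS group or MDA-MB-231 EV replicate 2 left out. Without that MDA-MB-231 EV library its log2 change was 0.16.

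Of 4 hypusination genes, which use spermidine to modify translation factor eIF5A, 2 rose with either EV and 1 fell with MCF10A EVs, beside 43.7% (MCF10A) and 47.8% (MDA-MB-231) of genes averaging 5 CPM or more called in either direction. Eif5a rose from a mean of 15143 normalised reads to 17923 with MCF10A and 18114 with MDA-MB-231 EVs (limma, adjusted p = 8.34e-06 and 2.33e-06). Dohh, the hydroxylase of the second step, rose 1.21-fold and 1.18-fold. Eif5a2 fell from 264 ± 5.97 to 216 ± 8.19 with MCF10A EVs (limma, adjusted p = 0.0387), a call lost in 10 of 18 alternatives, among them leaving out any 1 library.

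Of 10 genes tied to polyamine or cationic amino acid transport 7 were tested. With MCF10A EVs 2 rose and 1 fell, and with MDA-MB-231 EVs 0 rose and 4 fell, with medians of 0.12 and -0.18. These 3 and 4 of 7 stand beside 43.7% and 47.8% called among genes averaging 5 CPM or more. Slc7a1, the cationic amino acid transporter that brings in arginine, stood at 3859.9 and 3789 normalised reads in the PBS libraries, 4283 and 4189 after MCF10A EVs, and 3005 and 2904 after MDA-MB-231 EVs. The groups did not overlap. It rose by 0.15 and fell by 0.37 on the log2 scale (limma, adjusted p = 0.00303 and 4.35e-07), the rise being lost without PBS replicate 2 and by limma without trend, and between the EVs it was lower by -0.52 (limma, adjusted p = 4.48e-08). Gpc1, a heparan sulfate proteoglycan tied to polyamine uptake, was also called higher than PBS with MCF10A EVs, at 0.12 (limma, adjusted p = 0.0106), and fell by 0.31 with MDA-MB-231 EVs (limma, adjusted p = 2.96e-06). The first of these was lost with any 1 PBS or MCF10A EV library left out, by DESeq2 and by limma without trend. Slc3a2, the shared heavy chain of several amino acid transporters, fell by 0.16 and 0.47 (limma, adjusted p = 0.00269 and 9.77e-08), the first being lost without PBS replicate 1 and by limma without trend. Atp13a3, a polyamine transporter, fell by 0.18 with MDA-MB-231 EVs (limma, adjusted p = 8.54e-05) and stood at 0.016 with MCF10A EVs, not called.

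**Figure D5:**
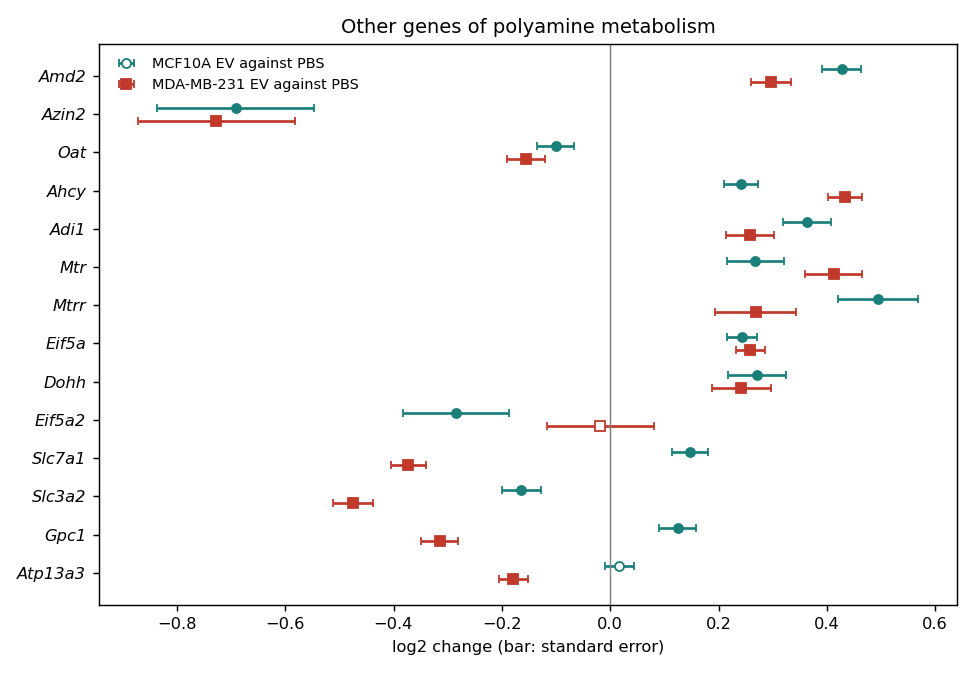
Log2 change against PBS (horizontal axis; bars are standard errors) of up to 4 called genes from each of the other pathway lists, with circles for MCF10A EVs and squares for MDA-MB-231 EVs; filled symbols passed an adjusted p under 0.05. Slc7a1 and Gpc1 lie above 0 with MCF10A EVs and below 0 with MDA-MB-231 EVs, and Azin2 lies at -0.69 and -0.73.

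Likeness to a member was measured as the root mean square difference of log2 values, each centred on its own mean, over the 6 libraries and 10104 genes. The genes most like Odc1 were Ifrd1, Klra2, Ercc1, Cnst and Mthfd2, at 0.022 to 0.048. Ifrd1 averaged 2964 normalised reads with PBS, 3423 with MCF10A EVs and 2455 with MDA-MB-231 EVs. Most like Sat1 were St3gal1, Arrdc4, Anxa6, Ficd and Rnase4, at 0.017 to 0.031, and most like Srm were Znhit6, Aen, Chchd4, Nifk and Gclm, at 0.031 to 0.044. Those most like Smox were Enpp2, Lrrk2, Tnfrsf23, Dhrs1 and Zfp52, at 0.042 to 0.045.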

How the data were processed

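The deposited file gives 1 normalised signal value per gene and library (20475 genes, 6 libraries). These values have the form of edgeR pseudo-counts, in which reads are moved to a shared library size by quantile adjustment. TopHat2, edgeR and the human build hg19 are named in the submitters' processing notes, whereas the rows name mouse chromosomes and genes. The mouse build, counter, annotation, strand setting and versions go unstated in the labels, so genes are located by chromosome. Per the labels, a stranded mRNA kit was used. Whole reads were recovered by inverting the adjustment (common dispersion 5.91e-04), and each of 122850 values, was matched by a whole number to a relative tolerance of 1e-06.

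limma 3.58.1 (eBayes with trend, R 4.3.3) was run on log2(value + 1) of the deposited signal for the 15025 genes reaching a value of 1 in 2 or more libraries, with a mean per group over all 6 libraries (3 residual and 11.5 prior degrees of freedom). edgeR 4.0.16 (12352 genes) and DESeq2 1.42.0 were run on the recovered reads. The fits and the recovery were tested on simulated data. Of the tests planned for either unit, the one for normalised values applied. Transcript lengths, overlaps and words of 50 bases came from GENCODE M21. All members were named. From each other list up to 4 called genes with the smallest p were named, with genes at 0 reads, Myc, and the 5 genes most like Odc1 and like the member with the largest change in each comparison. Members and lists were chosen with earlier results of these data known. Of the marker lists, Cd68 was not matched.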

Additional observations from a re-analysis of the deposited data

Results flagged for a closer look

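The changes of 5 members differed between the EVs by the limma test of MDA-MB-231 against MCF10A EVs. The PBS libraries cancel in the size of that difference but enter its standard error and adjusted p. The difference was -0.45 in log2 for Odc1, which was higher than with PBS after MCF10A EVs and lower after MDA-MB-231 EVs. For Srm it was -0.31, for Amd1 -0.13, for Sat1 -0.36 and for Smox -0.46. The same test called 16.9% of all tested genes and 23.3% of those averaging 5 CPM or more. Of the 5 members, only Amd1 lost its call in a fit of just the 2 groups compared.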

How the results depend on the processing

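Of 20 called changes of the members, 8 held under all 18 alternatives: Sat1 in all 3 comparisons, Amd1 with either EV against PBS, Srm with MCF10A EVs and Smox with MDA-MB-231 EVs against either group. No called change turned its direction under any alternative. The pseudocounts of 0.5 and 5, no filter on low values and a filter of 5 CPM changed no call of a member. With limma without trend, calls were lost for MDA-MB-231 EVs against PBS, Odc1 at -0.23, Srm at 0.20, Sms at 0.14, Azin1 at 0.10, Oaz2 at -0.14, and for MCF10A EVs against PBS, Odc1 at 0.21, Sms at 0.12, Azin1 at 0.12, Oaz2 at -0.14, and for MDA-MB-231 against MCF10A EVs, Odc1 at -0.45, Srm at -0.31, Amd1 at -0.13. With DESeq2, calls were lost for MDA-MB-231 EVs against PBS, Sms at 0.13, Oaz2 at -0.15, and for MCF10A EVs against PBS, Sms at 0.11, Oaz2 at -0.16, and for MDA-MB-231 against MCF10A EVs, Amd1 at -0.13. With edgeR, calls were lost for MCF10A EVs against PBS, Sms at 0.11. With edgeR, a call was gained for MCF10A EVs against PBS, Oaz1 at -0.076. With library totals, calls were lost for MDA-MB-231 EVs against PBS, Oaz2 at -0.076, and for MCF10A EVs against PBS, Oaz2 at -0.12, and for MDA-MB-231 against MCF10A EVs, Amd1 at -0.087. With library totals, uncalled changes turned for MDA-MB-231 EVs against PBS, Oaz1 at 0.024, and for MDA-MB-231 against MCF10A EVs, Azin1 at 0.020. With TMM scaling, calls were lost for MCF10A EVs against PBS, Sms at 0.11. With quantile scaling, calls were lost for MCF10A EVs against PBS, Sms at 0.089. With quantile scaling, uncalled changes turned for MDA-MB-231 EVs against PBS, Oaz1 at 0.0023, and for MDA-MB-231 against MCF10A EVs, Azin1 at 0.022. With a fit of only the 2 groups compared, calls were lost for MCF10A EVs against PBS, Sms at 0.12, Oaz2 at -0.14, and for MDA-MB-231 against MCF10A EVs, Amd1 at -0.13. With the replicate block, calls were lost for MCF10A EVs against PBS, Sms at 0.12. Leaving out each library in turn gave ranges of the log2 change. For MDA-MB-231 EVs against PBS they were -0.33 to -0.14 for Odc1, 0.12 to 0.29 for Srm, 0.13 to 0.15 for Sms, 0.091 to 0.11 for Azin1, -0.16 to -0.12 for Oaz2. For MCF10A EVs against PBS they were 0.19 to 0.23 for Odc1, 0.10 to 0.14 for Sms, 0.10 to 0.14 for Azin1, -0.18 to -0.11 for Oaz2, and -0.14 to -0.068 for Smox, which was not called. For MDA-MB-231 against MCF10A EVs they were -0.40 to -0.23 for Srm, -0.17 to -0.090 for Amd1, -0.034 to 0.037 for Oaz2. Where this left a group with 1 library, that library was assumed to vary like the others. The causes of these losses were not tested.

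Over all tested genes limma made 5231 calls with MDA-MB-231 EVs and 4764 with MCF10A EVs, each set against PBS, and 2541 between the EVs. Without trend it made 3346, 2231 and 378, and DESeq2 called 1515 in the last. Leaving out a library gave 3476 to 4828, 2810 to 3983 and 721 to 1698. The labels give no shared batch or culture for equal replicate numbers, and the deviations of equal numbers correlated at -0.011 to 0.027 over 10104 genes. The replicate block moved the counts to 5187, 4746 and 2560, and of the members it ended only the call of Sms with MCF10A EVs, at 0.12 (adjusted p = 0.0592).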
